A study of Mus musculus with 3 samples.

Results

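RBFOX2 crosslink clusters in the 3′ UTRs of protein coding genes were examined in primary mouse hepatocytes. A cluster was a member if its midpoint lay, on its own strand, in a 3′ UTR exon of a protein coding transcript of GENCODE M21 (genome build GRCm38) and in no coding sequence of any transcript. This rule selected 9594 of 87021 clusters, which is 11.02% of the list (Wilson 95% interval 10.8 to 11.2), in 3418 genes. By comparison, 10455 clusters lay in coding sequence.

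The data came from eiCLIP, in which proteins are fixed to RNA by ultraviolet light, RBFOX2 is immunoprecipitated and the start of each cDNA marks the crosslinked position. Hepatocytes of C57BL6/J mice on a control diet were plated, kept overnight, irradiated at 150 mJ/cm2 and precipitated with an antibody to RBFOX2, also called RBM9. There were 3 libraries in 1 group and no second condition. The methods describe independent cultures, each from pooled mice, whereas the labels list 3 livers and 3 pellets for each sample. The authors pooled the libraries into 1 cluster list, so no value below has a spread between cultures, and intervals cover counting error or the variation between genes only. The value of a cluster is a whole number, read here as its count of pooled cDNA starts. It ranged from 10 to 8934 in 3′ UTRs.

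RBFOX proteins bind RNA through a single RNA recognition motif that reads GCAUG, written GCATG in the DNA alphabet used here, and often UGCAUG. They are best known for directing alternative splicing from introns next to regulated exons. Family members also have cytoplasmic forms that bind 3′ UTRs, the part of an mRNA after the stop codon where stability, localisation and translation are controlled.

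Sequences are shown for the highest clusters that hold the motif. Each line gives 30 nt, 5′ to 3′ on the strand of the gene, around the GCATG nearest to the 5′ end of the cluster, with the motif in capitals. The 12 sites belong to the highest clusters with GCATG within 50 nt, in order of count, and were read from the annotated transcripts of GRCm38. The motif was required, so its presence at these sites is no result. Among all stretches as long as the cluster with 50 nt on each side, in the same 3′ UTR, 7.70% (Tmem106b) to 72.3% (B2m) held it.
Selenop (chr15:3280222-3280251, plus strand): ttgagttgcactGCATGtatctgtgcatct
B2m (chr2:122152766-122152795, plus strand): taaatattttatGCATGttttcaaaaaatt
Lamp2 (chrX:38420269-38420298, minus strand): acttgcatgttaGCATGttcatgtctgtga
Slco2a1 (chr9:103085946-103085975, plus strand): taactaatgttaGCATGccttcctcctcct
Dync1i2 (chr2:71262814-71262843, plus strand): ctcaaactatttGCATGcttctgattaaat
Nedd4 (chr9:72747792-72747821, plus strand): tcacgtttgttaGCATGcagcttgagcctt
Atp2a2 (chr5:122456744-122456773, minus strand): aaaaactaaataGCATGtattgtgtctttt
Arhgdia (chr11:120578707-120578736, minus strand): aactccctgtctGCATGagcatgtgctctc
Scd1 (chr19:44397238-44397267, minus strand): agagaaaagttaGCATGcgtggtatgattt
Mical2 (chr7:112354081-112354110, plus strand): gactcgctagagGCATGaatggtaaagagc
St3gal1 (chr15:67105585-67105614, minus strand): cacaactgaaatGCATGtacctcttcttct
Tmem106b (chr6:13084860-13084889, plus strand): ttctactgatttGCATGttttgtcttattt

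The cluster counts behind these sites fell from 6354 for Selenop and 5887 for B2m to 2459 for Lamp2, 1669 for Slco2a1 and 1441 for Dync1i2. Selenop encodes the selenoprotein that the liver secretes to carry selenium, and B2m encodes the light chain of MHC class I. The motif began 523 nt past the stop codon in Selenop, 142 nt in B2m and 1425 nt in Lamp2, a lysosomal membrane protein. In the prostaglandin transporter Slco2a1 it began 78 nt past the stop codon of a 3′ UTR of 4572 nt, and in the dynein chain Dync1i2 64 nt past the stop codon. The other sites had counts from 1350 in the ubiquitin ligase Nedd4 down to 1074 in the lysosomal protein Tmem106b. The motif did not sit at a fixed place relative to the cluster start: it began 2 nt before the 5′ end of the Selenop cluster, 11 nt before that of Lamp2 and 42 nt after that of B2m.

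Of the 10 highest clusters, those of Lars2 and H2-K1 were not among these sites. The Lars2 cluster, the highest of all 3′ UTR clusters, had 8934 counts over 135 nt and no GCATG in its window, although 29.3% of windows of that length in its 3′ UTR held one. Lars2 encodes the mitochondrial leucyl-tRNA synthetase. Whether the reads of this cluster came from the Lars2 mRNA or from another RNA of similar sequence was not tested. The H2-K1 cluster, with 1346 counts, lay too close to the transcript end for a window. H2-K1 encodes an MHC class I heavy chain and belongs to a family of near-identical genes, and only uniquely mapped reads were kept, so its count is uncertain. The 30 nt around the 5′ end of both clusters are given for comparison, with the first base of the cluster in capitals.
Lars2 (chr9:123461868-123461897, plus strand): attttcagtaGgaatacagaccgtgaaagc
H2-K1 (chr17:33996168-33996197, minus strand): cctcacttccAcactgagaataataatttg

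Counts were concentrated in few clusters. The median 3′ UTR cluster had 20 counts, with quartiles of 14 and 32, against a median of 18 in coding sequence and 17 over the whole list. The 10 highest clusters held 9.12% of the 350479 counts in 3′ UTRs, and 3′ UTRs held 12.3% of the 2850863 counts in the list. Clusters with at least 39 counts made up 18.8% of 3′ UTR clusters (1801 of 9594) against 11.1% of 10414 coding sequence clusters that could be placed on a transcript, a difference of 7.68 percentage points (95% interval over genes 6.18 to 9.19). At the same time, 3′ UTR clusters were narrower, with a median width of 16 nt against 30 nt in coding sequence. Clusters under 10 nt wide were 38.0% of those in 3′ UTRs and 24.3% of those in coding sequence.

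At least 1 cluster in the 3′ UTR was found in 16.2% of 21036 protein coding genes. Most of these genes had few: 1850 had a single cluster and 501 had 5 or more. In 1909 genes both the 3′ UTR and the coding sequence held clusters, and in 437 genes (12.8%) every cluster of the gene lay in the 3′ UTR. The median over genes was 30 counts in the 3′ UTR, and the median share of a gene's counts that lay there was 30.9%. Neighbouring clusters in a 3′ UTR were a median of 202 nt apart. Nearly all members, 99.7%, lay in the last exon. In 18.8% of members the same position was intronic in another transcript of the annotation, and for these clusters mature mRNA and pre-mRNA cannot be told apart.

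The markers of the labelled cell type were present. Of 10 hepatocyte markers, 6 had a 3′ UTR cluster, led by albumin (Alb) with 855 counts in 2 clusters and the urea cycle enzyme Cps1 with 416 counts in 7. Of the markers of other liver cells, the endothelial gene Cdh5 had 1 cluster with 12 counts. The Kupffer cell (5 genes), stellate cell (5), cholangiocyte (5) and lymphocyte (4) markers had 0 clusters in 3′ UTRs. Counting clusters anywhere in the gene, 9 of the 10 hepatocyte markers had one. Among the others, 2 of the Kupffer cell, 2 of the 5 endothelial, 1 of the stellate cell, 1 of the lymphocyte and 0 of the cholangiocyte markers had one. Of all 21036 protein coding genes, 9059 had a cluster anywhere in the gene and 16.2% had one in the 3′ UTR. Clusters depend on the amount of mRNA, and RNA abundance was not analysed here, so none of the counts below is a measure of binding per molecule.

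The 12 genes with the highest summed 3′ UTR count held 18.6% of all 3′ UTR counts, and they fell into a group with 1 dominant cluster and a group with many. Lars2 had 9877 counts in 6 clusters, of which 90.5% were in 1. B2m had 6673 counts in 9 clusters, with 88.2% in the highest, and Selenop 8259 counts in 14 clusters, with 76.9% in the highest. The other clusters of B2m had between 25 and 279 counts, so the highest stood more than an order of magnitude above its neighbours. Most of the counts of the whole gene lay in the 3′ UTR in these genes, 99.9% in Lars2, 89.2% in B2m and 86.7% in Selenop.

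Scd1, the stearoyl-CoA desaturase that makes monounsaturated fatty acids, was of the other kind. It had the most clusters of any 3′ UTR, 60 over 3464 nt, with 5255 counts, of which 22.3% were in the highest cluster. Of its clusters, 52 were under 10 nt wide, and the median cluster had 41 counts. The actin-oxidising enzyme Mical2 (48 clusters, 5672 counts) and the sialyltransferase St3gal1 (46 clusters, 3996 counts) had 20.4% and 27.3% of their counts in the highest cluster. All 48 clusters of Mical2 and all 33 of Lamp2 (6838 counts) lay at positions that are intronic in another transcript, as did 14 of the 20 of Atp2a2, the calcium pump of the endoplasmic reticulum (4558 counts).

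Tmem106b (39 clusters, 3599 counts), Nedd4 (37 clusters, 3473 counts) and the hydrolase Abhd2 (54 clusters, 2866 counts) also had dispersed clusters. By number of clusters, Scd1 and Abhd2 were followed by the transcription factors Nfic (53 clusters, 1922 counts) and Zbtb20 (50 clusters, 1443 counts) and by the adaptor protein Sorbs2 (48 clusters, 1963 counts). In Sorbs2 the 3′ UTR held 6.61% of the 29708 counts of the gene, whereas in Nfic it held 86.2%. Positions intronic in another transcript accounted for 24 of the 48 Sorbs2 clusters and 17 of the 53 Nfic clusters.

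**Figure D1:**
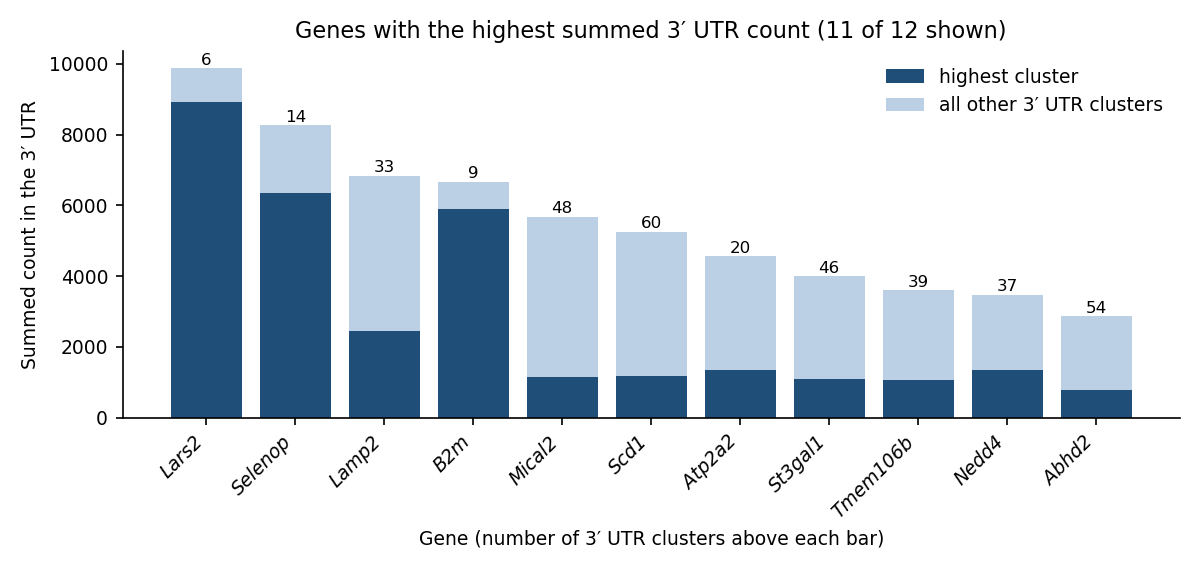
Summed count (cDNA starts, pooled libraries, linear axis) in the 3′ UTRs of 11 of the 12 genes with the highest sums, split into the highest cluster and all other clusters, with the number of clusters above each bar. Lars2, Selenop and B2m had over 76% of their counts in 1 cluster, and the other 8 genes shown under 39%.

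The bars of summed count show the difference between genes with 1 dominant cluster and genes with dispersed clusters. Along the transcripts, the dominant clusters lay at different places, as the map of 5 of these 3′ UTRs shows.

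**Figure D2:**
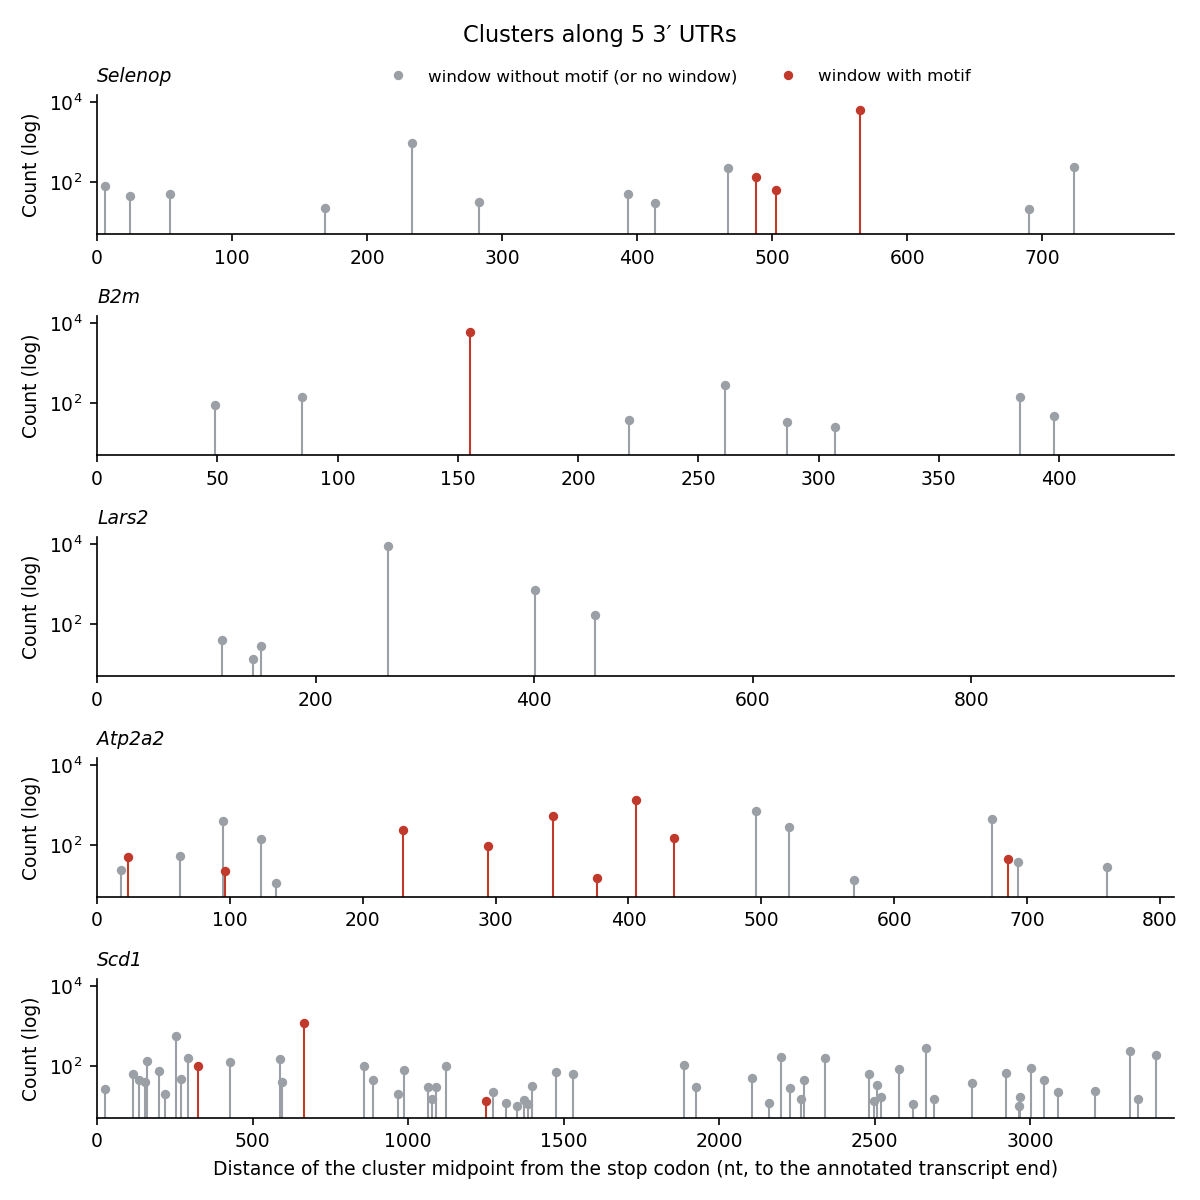
Each stem is a cluster, placed by the distance of its midpoint from the stop codon (nt, horizontal axis, to the annotated transcript end) with its count on a log axis, and red marks a cluster with the RBFOX motif within 50 nt. The highest stem is red in Selenop, B2m, Atp2a2 and Scd1 and grey in Lars2.

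Clusters were placed more densely in the first part of 3′ UTRs. Divided into 5 equal parts from the stop codon to the annotated end, the 3′ UTRs held 24.1%, 22.6%, 20.4%, 18.01% and 15.0% of their clusters, where even placement gives 20% each. The intervals over genes of the first part (23.1 to 25.1) and of the last (14.2 to 15.7) both excluded 20%. With 10 parts, the last held 6.29% (5.81 to 6.76) where even placement gives 10%. The decline was found in long and short 3′ UTRs alike, but the interval of the first part included 20% in 3′ UTRs under 500 nt, where it held 19.9% (16.6 to 23.2) and the second part 28.2%, and in those of 500 to 1000 nt, where it held 21.9% (19.5 to 24.3) and the second part 24.5%. In those over 4000 nt the first part held 27.6% (24.7 to 30.5) and the last 14.0%.

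This gradient depended on the annotated end. When each cluster was placed on the transcript with the shortest 3′ UTR that holds it, the first part held 19.4% (18.5 to 20.4) and the last 17.9% (17.1 to 18.8). With clusters that also lie in an intron, a 5′ UTR or a non-coding exon of another transcript left out, the first part held 20.9% (19.6 to 22.2) and the last 16.5%. The deficit in the last part was thus present in all of these choices, and the surplus in the first part was not.

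The distance from either end was compared with even placement of each cluster within its own 3′ UTR. The median cluster lay 858 nt past the stop codon and 1104 nt before the transcript end. In the first 50 nt after the stop codon, 322 clusters were found where even placement gave 327.9, a ratio of 0.98 (0.89 to 1.08). Between 100 and 200 nt the ratio was 1.24 (1.16 to 1.32), and from 2000 to 5000 nt it was 0.85 (0.80 to 0.90). Near the transcript end clusters were few: 87 lay in the last 50 nt, a ratio of 0.27 (0.21 to 0.32), and the ratio was 0.78 (0.69 to 0.87) from 50 to 100 nt and 1.05 (0.98 to 1.12) from 100 to 200 nt. Clusters were thus depleted over about the last 100 nt, on the ends that the annotation gives.

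Counted instead as clusters per kb over all 3′ UTRs with a cluster, the density within 200 nt was 1.77 times that of the whole 3′ UTR at the stop codon (1.67 to 1.89) and 1.19 times at the transcript end (1.11 to 1.27). This measure gives short 3′ UTRs, which were included only if they held a cluster, more weight near both ends. With even placement within each 3′ UTR the values for the same 200 nt were 1.16 (1.11 to 1.21) and 0.78 (0.74 to 0.82), so the direction at the transcript end turned.

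**Figure D3:**
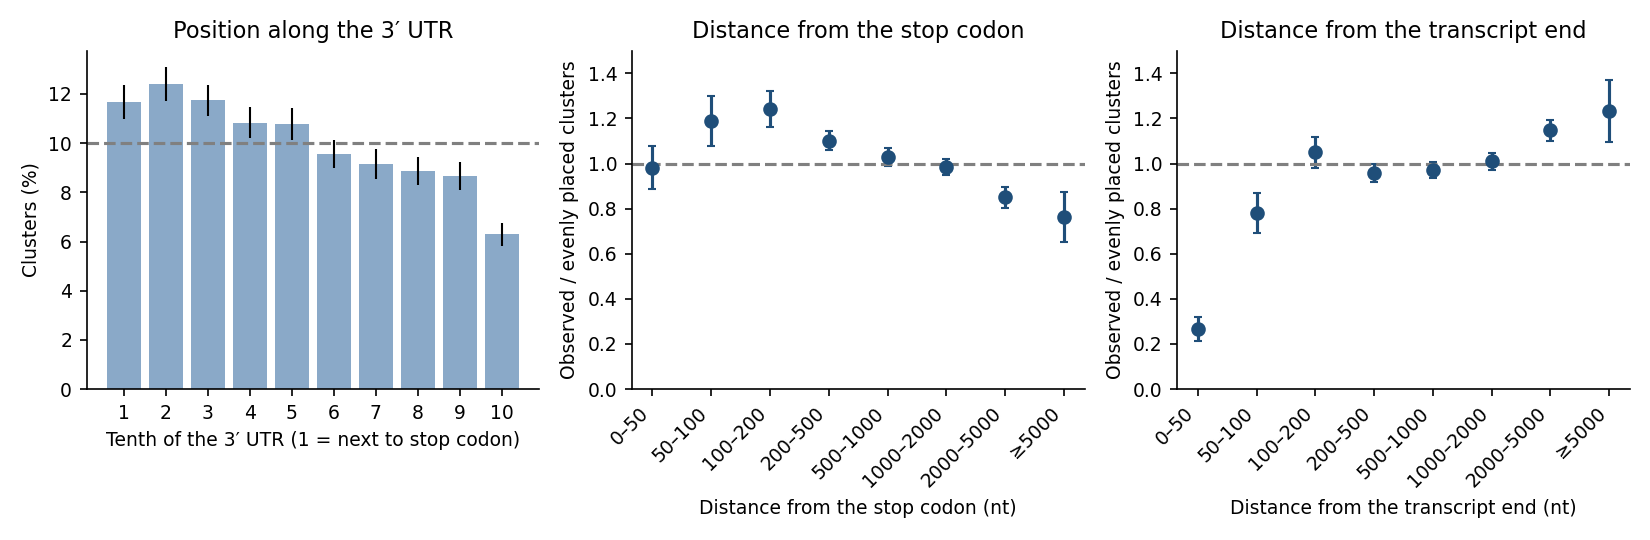
Left, percent of 3′ UTR clusters in each of 10 equal parts of the 3′ UTR (bars) with 95% intervals over genes and 10% as a dashed line. Middle and right, clusters observed divided by clusters under even placement, by distance in nt from the stop codon and from the transcript end. The ratio was 1.24 between 100 and 200 nt past the stop codon and 0.27 in the last 50 nt.

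The plot of position shows the slope along the 3′ UTR and the steep drop at its end. Within the same mRNAs, the density of clusters per kb did not differ between 3′ UTR and coding sequence beyond its interval: the ratio was 1.01 (0.95 to 1.08) over 5288 genes, with the 3′ UTR denser in 2436 genes and the coding sequence in 2852. For higher clusters the 3′ UTR was denser, by 1.15 times (1.06 to 1.24) at 17 or more counts and 1.75 times (1.54 to 2.004) at 39 or more. When clusters within 200 nt of each other were merged, the ratio was 0.78 (0.74 to 0.82).

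The RBFOX motif was more frequent at 3′ UTR clusters than elsewhere in the same 3′ UTRs. A window was the cluster with 50 nt on each side, and 9431 members had one. Of the 163 without, 151 lay near the transcript end. GCATG was present in 2037 windows, or 21.6% (Wilson 95% interval 20.8 to 22.4), against 14.3% of all windows of the same length in the same 3′ UTRs, an excess of 7.34 percentage points (6.58 to 8.11 over genes). At the median window length of 115 nt, 10.8% of all windows in these 3′ UTRs held the motif. In coding sequence clusters the excess was 0.79 points (0.18 to 1.41), with GCATG in 12.9% of windows against 12.1%. The excess in 3′ UTRs was larger than in coding sequence by 6.55 points (5.55 to 7.55). Only the transcript strand was searched.

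The longer TGCATG, which contains GCATG, was found in 11.7% of 3′ UTR windows against 6.40%, a ratio of 1.82. Of 3622 hexamers ranked by the ratio of observed to background windows, TGCATG was the highest (1.87, with each occurrence counted) and GCATGT the next (1.79). GCACG, a weaker RBFOX sequence, was in 2.95% of windows against 2.76%, an excess of 0.19 points whose interval included 0 (-0.13 to 0.52). The reverse complement CATGC, which shares 4 bases with GCATG, was in 13.5% against 12.3%. Runs of G also ranked high, with GGGGGG in the third place at a ratio of 1.71, as did the T-rich TTGTTT (1.51) and TTTTTT (1.47) and the repeat ACACAC (1.47). The hexamer CGTGAT held the fifth place but rank 1357 once 109 clusters (1.14%) with an adaptor-like heptamer (ACGTGAT, the heptamer ATGGTCA or the heptamer AGCCTAA) between 6 and 17 nt downstream of their 5′ end were left out. Without these clusters the GCATG excess was 7.38 points.

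The share of windows with the motif rose with the count. Among clusters with 10 counts, 14.6% of 597 windows held GCATG against 11.8% of background windows. The share was 19.2% against 13.4% at 17 to 19 counts and 26.9% against 16.4% at 37 to 55 counts. At 56 counts or more it reached 39.9% (36.8 to 43.0) of 976 windows against 19.3%, an excess of 20.6 points. The background share rose with the count as well. Clusters with at least 100 counts exceeded the rest by 17.6 points of excess (12.7 to 22.4).

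The same contrast was seen within genes, whose clusters share the expression of the gene. In genes with 5 or more 3′ UTR clusters, the highest cluster of the gene held GCATG in 212 of 496 windows (42.7%) against 17.1% of background windows, an excess of 25.6 points (21.5 to 29.8). The second highest cluster held it in 19.9% against 14.6%, and all lower clusters together in 15.2% of 3895 windows against 13.3%, an excess of 1.89 points (0.82 to 2.95). The highest exceeded the lower clusters by 23.7 points (19.3 to 28.1 over 501 genes). Among the 12 genes with the highest sums, 11 had GCATG at their highest cluster, Lars2 being the exception. For these 12 clusters the background share ran from 7.70% (Tmem106b) to 72.3% (B2m). Their remaining 359 windows held it 45 times where 59.9 was the background value. That background still includes the sequence at the highest cluster, as does the background of the lower clusters above. It is thus set high for windows from which the highest cluster was left out, and a value below it is no result. Scd1 is an example: 3 of its 59 windows held GCATG, below the background value of 7.42, but the cluster of 1171 counts was among the 3.

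**Figure D4:**
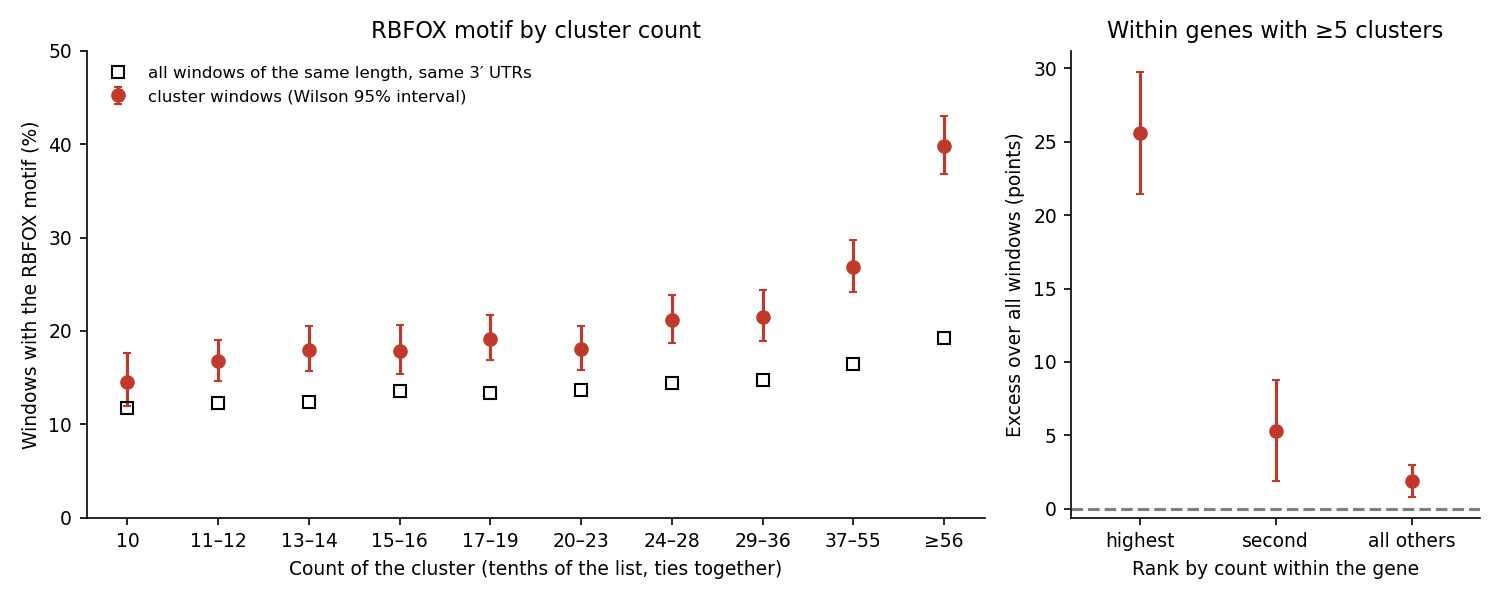
Left, percent of 3′ UTR cluster windows with the RBFOX motif by count (filled, Wilson 95% intervals) and the background of all windows of the same length in the same 3′ UTRs (open squares). Right, excess over background in percentage points for the highest, the second highest and all other clusters of genes with 5 or more clusters, with intervals over genes. The excess was 25.6 points for the highest cluster and 1.89 for the others.

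The plot of motif share by count shows the wider gap to the background at high counts and at the highest cluster of each gene. The excess was smaller in narrow clusters. It was 2.11 points (0.65 to 3.58) in clusters 1 to 4 nt wide and 14.4 points (12.7 to 16.2) in those 50 to 200 nt wide, and clusters of at least 10 nt exceeded narrower ones by 6.54 points (4.87 to 8.20). Along the 5 parts of the 3′ UTR from the stop codon, the excess was 8.61 (6.95 to 10.3), 6.18 (4.50 to 7.86), 5.34 (3.66 to 7.02), 8.04 (6.05 to 10.03) and 9.11 points (6.75 to 11.5), lowest in the middle part. The last part minus the first gave 0.50 (-2.39 to 3.39), and differences from the middle part were not tested. In 3′ UTRs under 500 nt the excess was 1.72 points, with an interval that included 0 (-0.77 to 4.21), and there 22.3% of background windows held the motif. Clusters that were also intronic in another transcript had an excess of 6.98 points, and the others 7.43.

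At single-nucleotide resolution the motif peaked next to the cluster start. In 9153 clusters with enough sequence, GCATG most often began 2 nt before the 5′ end of the cluster, in 50 clusters (0.55%, Wilson 0.41 to 0.72), against a mean of 0.14% per position at 60 to 120 nt. A second peak of 37 clusters lay 2 nt after the 5′ end. Between them, only 4 clusters had the motif beginning at the first base itself. The mean share per position was 0.24% over the 15 positions from 20 to 6 nt before the start and 0.15% over those from 6 to 20 nt after it. Farther out it was 0.16% from 50 to 21 nt before and 0.18% from 21 to 50 nt after the start.

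**Figure D5:**
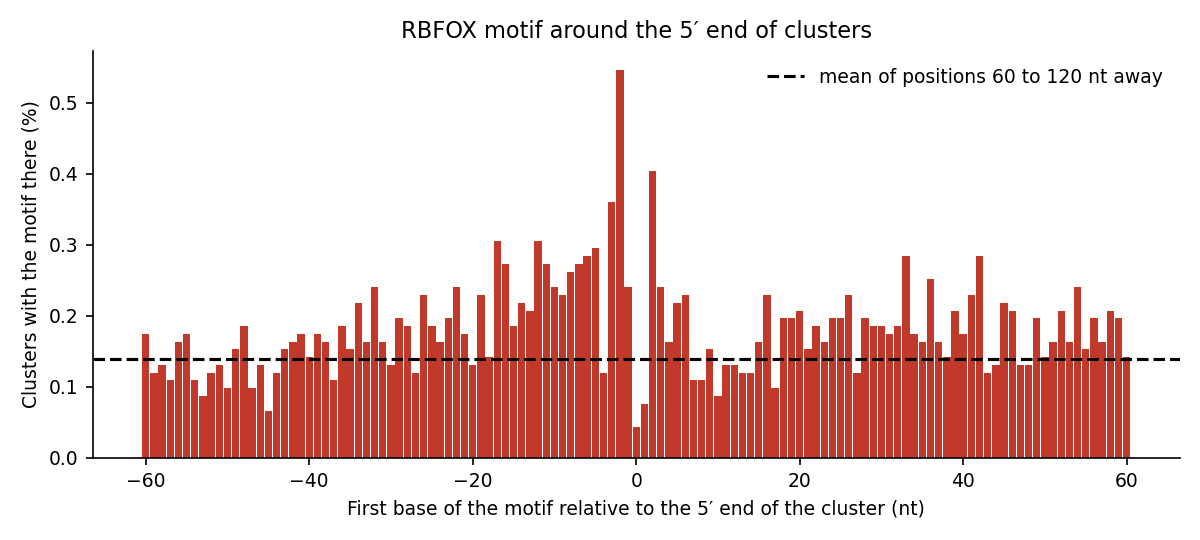
Percent of 3′ UTR clusters in which the RBFOX motif begins at each position (nt) relative to the 5′ end of the cluster, with the mean of positions 60 to 120 nt away as a dashed line. Bars peak at 2 nt before (0.55%) and rise again 2 nt after the 5′ end, and the bar at the first base stands for 4 clusters.

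The profile around the cluster start shows the sharp peaks on both sides of the 5′ end, a broad rise just before it and a lower one farther after it. At the first base of the cluster G was less frequent than in the 3′ UTRs as a whole (15.0% against 21.8%) and A more frequent (32.6% against 26.6%).

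Seen from the motif, most GCATG sites in these 3′ UTRs had no cluster. With 1 transcript per gene there were 8236 sites, of which 2095 (25.4%, Wilson 24.5 to 26.4) lay within 50 nt of a cluster start, against 14.6% of all positions. Sequences that differ from GCATG in 1 base were nearer to that background, with 16.2% for GAATG, 16.0% for GTATG, 15.6% for GCACG and 13.3% for GCATC. In 722 of the 3418 3′ UTRs with a cluster there was no GCATG at all.

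The share differed with the bases on either side of the site. GCATG preceded by T had a nearby cluster in 32.4% of 3316 sites, against 20.7% of 4920 sites with another base, a difference of 11.7 points (9.71 to 13.7 over genes). Preceded by C, A and G the shares were 26.9%, 21.5% and 18.2%. After the motif, T gave 29.1% and G 20.05%. With T on both sides, 38.0% of 1145 sites (35.2 to 40.8) had a nearby cluster, and with G on both sides 15.5% of 579 (12.8 to 18.7), close to the value for all positions. Around the control sequences the same flanks gave 16.8% for TGAATGT and 17.4% for TGTATGT. The Selenop, B2m, St3gal1 and Tmem106b sites above have T on both sides.

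Poly(A) signals (AATAAA or ATTAAA) were about as frequent at 3′ UTR clusters as elsewhere in the same 3′ UTRs. AATAAA was in 8.58% of windows against 8.55% of background windows, and ATTAAA in 6.89% against 6.74%, with intervals of the excess that included 0 (-0.47 to 0.53 and -0.29 to 0.60 points). Either signal was present in 48.0% of the 196 windows of clusters 50 to 100 nt from the transcript end. The share was 17.8% at 100 to 200 nt and 12.02% to 13.9% farther away. Of all windows of the median length of 115 nt, at any distance from the end, 12.6% held either signal. That value is matched to the clusters neither for window length nor for distance.

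Groups of genes that matter in the liver were counted against all protein coding genes, of which 16.2% had a 3′ UTR cluster. The median given for each list is that of the summed 3′ UTR count per gene with a cluster. Over all protein coding genes it was 30. The lists were not matched on expression, so the shares describe the lists only. Of 50 genes of fatty acid and sterol metabolism, 31 had a 3′ UTR cluster, with a median of 33 counts. Scd1 led them, followed by Hmgcs1, the cytosolic synthase of the cholesterol pathway, with 1072 counts in 12 clusters. Its highest cluster had 700 counts, lay 1403 nt past the stop codon and held GCATG. Of the 12 Hmgcs1 windows, 1 held GCATG, against a background value of 1.66. Gpam, which starts glycerolipid synthesis, had 515 counts in 16 clusters, and the acyl-CoA synthetase Acsl4 had 191 in 8. Windows with GCATG were 1 against 3.75 in Gpam and 1 against 0.32 in Acsl4. Of the 16 clusters of Gpam, 14 lay at positions that are intronic in another transcript.

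Lipoprotein and cholesterol transport genes had clusters in 17 of 38 cases. Their summed counts were low, with a median of 23 per gene against 30 over all protein coding genes. The cargo receptor Surf4 had 82 counts in 4 clusters, the highest with 35, and the sterol transfer protein Stard4 had 69 counts. No gene of this list had a cluster of 39 counts or more, against 10 genes of the fatty acid and sterol list. Of all 21036 protein coding genes, 852 had such a cluster in the 3′ UTR. All 3 clusters of Stard4 lay in its 3′ UTR. Secreted plasma proteins had clusters in 18 of 39 annotated genes, among them Alb (855 counts), ceruloplasmin (Cp, 220) and the vitamin D binding protein (Gc, 181). The 3′ UTR held 10.54% of the counts of Alb and 11.2% of those of Cp. The 6 Cp clusters in the 3′ UTR all lay at positions that are intronic in another transcript.

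Splicing regulators had 3′ UTR clusters in 38 of 58 genes, with a median of 58.5 counts, the highest median of the 6 lists. Of their 149 windows, 20.8% held GCATG, against 21.6% over all protein coding genes. Ptbp3, a paralogue of the polypyrimidine tract binding protein, had 960 counts in 20 clusters and 5 windows with GCATG against a background value of 1.90. Mbnl1, which directs tissue splicing programmes, had 837 counts in 17 clusters and 7 windows with the motif against 2.77. Tardbp, which encodes TDP-43 and controls its own mRNA through its 3′ UTR, had 795 counts in 12 clusters, and the helicase Ddx17 had 505 in 22. Windows with GCATG were 4 against 2.38 in Tardbp and 3 against 2.76 in Ddx17. All 12 clusters of Tardbp and 11 of the 22 of Ddx17 lay at positions that are intronic in another transcript. In Ptbp3, 86.7% of the counts of the gene were in the 3′ UTR, and in Mbnl1 31.0%.

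Of the mRNA decay and microRNA genes, 23 of 41 had a 3′ UTR cluster, with a median of 44 counts. The polyadenylation element binding proteins Cpeb4 and Cpeb2 had 506 counts in 13 clusters and 321 in 14. Ago2, the Argonaute that cleaves targets, had 335 counts in 15, and the decay kinase Smg1 had 175 in 6. Of the insulin and growth factor genes, 24 of 36 had a cluster, with a median of 32 counts. The insulin receptor Insr had 458 counts in 13 clusters, the EGF receptor Egfr 414 in 10 and the binding protein Igfbp1 166 in 6. Each of the 13 Insr clusters was also intronic in another transcript.

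Of 8 genes that the study names as RBFOX2 targets or, for Rbfox2, as the factor itself, 4 had a 3′ UTR cluster, each with 1, beside 16.2% of all protein coding genes. Sec31a, a coat protein of secretory vesicles, had 1 cluster with 46 of the 738 counts of the gene. Osbpl9, an oxysterol binding protein, had 1 with 14 counts, the adaptor Numb 1 with 13 and Rbfox2 itself 1 with 12. None of these 4 clusters held GCATG in its window. The share of same-length windows with it in the same 3′ UTR was 0% in Osbpl9 and Numb, 12.8% in Rbfox2 and 55.5% in Sec31a. In Osbpl9 and Numb the absence was thus fixed by the sequence of the 3′ UTR. Scarb1, the HDL receptor, had 0 clusters in its 3′ UTR and 3 elsewhere with 62 counts. Pla2g6, Ptbp2 and Snrnp70 also had 0 clusters there, although 909, 473 and 2389 counts fell elsewhere in these genes. Clusters below 10 counts are not in the list, so fewer crosslinks than that could not be seen.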

How the data were processed

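Per the labels, the samples were 3 RBFOX2 eiCLIP libraries from primary mouse hepatocytes, which formed 1 group. No input library was used here. According to the methods and the submitters' processing notes (CASAVA 1.8.4, cutadapt, STAR 2.4.2a, GRCm38), the authors trimmed adaptors, kept uniquely mapped reads, removed duplicates by position and random barcode, pooled the libraries and grouped cDNA starts into clusters with Paraclu. The deposited value of a cluster is a count. It is not normalised, and its reading as pooled cDNA starts rests on its values (whole numbers, minimum 10). Depth per library and the spread between libraries are unknown.

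Clusters were annotated by midpoint and strand with GENCODE M21, a later release than the one the study names. The 73 clusters on sequences without annotation under their chromosome name, and 22 with the midpoint on a stop codon, were not members. Each member was placed on 1 transcript, with preference for the basic tag, APPRIS principal, longest coding sequence and longest 3′ UTR. Sequence came from the transcripts. Background windows were every window of the same length in the same 3′ UTR. Shares have Wilson 95% intervals. Means and differences have linearised 95% intervals with the gene as the unit. No p-value was computed, since clusters are not replicates. The procedures were tested on simulated clusters. Python 3.11.15, numpy 2.4.6, scipy 1.17.1 and matplotlib 3.10.9 were used.

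Members, lists and alternatives were chosen with earlier results of these data known. Named were the 10 highest clusters, the 12 genes with the highest sums, the 5 with the most clusters, the 12 highest clusters with GCATG, 4 members of each of the 6 lists (the highest sums) and 8 genes of the study. Some genes that these rules select are not reported here. The comparison with even placement, the ranking within genes and the flanking bases were chosen after the values were seen.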

Additional observations from a re-analysis of the deposited data

How the results depend on the processing

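Leaving out a library was not possible because the libraries were pooled. No paired analysis was possible because the pooled list carries no replicate and there is 1 group. Depth limits the list to clusters of 10 counts or more.

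The share of clusters in 3′ UTRs was 13.3% at 17 counts or more, 20.3% at 39 or more, 7.04% without positions in other annotation classes and 8.64% after merging within 200 nt. The first of the 5 parts of the 3′ UTR held 20.9% without other annotation classes and 19.4% on the shortest 3′ UTR, where the surplus turned to below 20%. The last part held 14.0% at 39 counts or more, 16.5% without other classes, 17.9% on the shortest 3′ UTR and 14.2% with equal weight per gene. The density within 200 nt relative to the whole 3′ UTR on the shortest 3′ UTR was 1.64 at the stop codon and 1.59 at the transcript end. With even placement, chosen after seeing the data, it was 1.16 and 0.78. The ratio of 3′ UTR to coding density was 1.15 at 17 counts, 1.75 at 39 and 0.78 after merging.

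The GCATG excess in 3′ UTRs, and its difference from coding sequence, were 9.09 and 8.14 points at 17 counts or more, 16.2 and 14.4 at 39, 9.51 and 8.77 after merging, 10.1 and 9.02 with equal weight per gene, 5.98 and 5.43 with 20 nt on each side, and 9.20 and 8.32 against all 3′ UTRs or coding sequences. For other motifs they were 5.25 and 4.66 (TGCATG), 1.18 and 1.59 (CATGC) and 0.19 and 0.34 (GCACG). At widths of at least 10 nt they were 9.84 and 8.94, and against windows over 100 nt from every cluster the excess was 10.51. Both settings were chosen after seeing the data. No alternative turned the sign of the excess. The cause of these shifts was not tested.

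Genes with a 3′ UTR cluster of 17 counts or more were 10 in the lipoprotein list. At 39 or more they were 0 there, 6 for plasma proteins, 17 for splicing regulators and 7 for mRNA decay. They were 10 for fatty acid and sterol metabolism and 7 for insulin signalling, and 852 over all 21036 protein coding genes. At 17 or more the other 5 lists had 14 (plasma proteins), 32 (splicing regulators), 18 (mRNA decay), 26 (fatty acid and sterol metabolism) and 17 genes (insulin signalling). Without the 10 highest clusters, 3′ UTRs held 11.3% of the summed count. The remaining alternative values stayed within the interval of the reported value.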

Other observations

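Outside mRNA regions shared with other transcripts, few members overlapped annotated non-coding RNA exons of other genes on their strand: 19 overlapped a processed transcript, 3 a lincRNA, 1 an antisense RNA, 1 a microRNA precursor and 1 a small nuclear RNA. The midpoints of 38 members lay in the 3′ UTRs of more than 1 gene. More than 1 copy of GCATG was present in 193 windows.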
